A study of Mus musculus with 8 samples.

Results

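This account follows 9 genes in sorted mouse blood monocytes: 8 platelet genes (Pf4, Ppbp, Itga2b, Gp9, Gp1ba, Gp5, Treml1 and Clec1b) and Rgs18, which both platelets and myeloid cells make. They were taken by name, through probe sets annotated to exactly 1 gene symbol, with the probe set of highest mean over the 8 arrays standing for the gene. This found 8 of the 9 among 18193 measured genes. Gp1ba, the chain of the platelet von Willebrand factor receptor that binds the ligand, had no such probe set and is not analysed here, which leaves 7 platelet genes.

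RNA came from male C57BL/6 mice that had been given 1 µm fluorescent latex beads intravenously. The 4 groups were Gr1hi (classical) monocytes with beads, Gr1hi without beads, Gr1lo (nonclassical) with beads and Gr1lo without beads, 2 arrays each. The cells of all groups, those without beads too, came from mice that received beads, and were sorted 4 days later. Bead effects, rises and falls below are therefore differences between cells that did and did not carry beads. They are not shown responses to beads. The descriptions conflict on a pretreatment with clodronate liposomes, an agent that kills phagocytes: the design text places it 3 days before the beads and names no subset, while the treatment protocol used it for labelling Gr1hi cells and not Gr1lo cells. If the protocol holds, pretreatment and subset cannot be told apart. The nonclassical marker Treml4 read 12.90 to 13.08 on the Gr1lo arrays and 8.37 to 9.08 on the Gr1hi arrays. Values are log2 expression (RMA), where 1 unit is a 2-fold difference, and 6.98 is the background level, which 95% of 115 genes of sensory receptors and hair proteins (unexpressed-type genes) do not exceed. The small number of arrays limits every comparison.

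Platelets are cell fragments without a nucleus that keep RNA from the megakaryocytes that shed them, and activated platelets bind to blood monocytes through P-selectin. Platelet RNA in a monocyte sort would carry granule chemokines, adhesion receptors and signalling receptors together, so the arrays with more of it would read higher for all of them. In bulk samples like these, fewer cells of a type and less RNA per cell cannot be told apart. Rgs18 encodes a regulator of G protein signalling that limits platelet activation and is also made by monocytes, and the question is whether it followed the platelet genes.

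Array 1 of the Gr1lo group without beads stood apart. Between the 2 arrays of that group 152 genes were at least 2-fold higher on array 1 and 1 on array 2, against 6 to 15 and 2 to 8 in the other groups. The probe sets for 18S ribosomal RNA read 8.58 on this array and 9.58 to 10.64 on the other 7; the part of this in the values of that array was not tested. Added poly-A control RNAs, which do not come from the cells, also read higher with beads (9.45 and 9.86 against 7.75 and 8.11 in Gr1hi, 10.44 and 10.45 against 9.27 and 8.68 in Gr1lo); their part in the bead comparisons was not tested.

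The granule chemokines showed the clearest split among the platelet genes. Pf4 (platelet factor 4) and Ppbp (pro-platelet basic protein) lie next to each other on chromosome 5 in the RefSeq annotation and are both stored in platelet alpha granules. Their upstream sequences are shown because these neighbours read so differently on 1 array. They are the 250 bases before each RefSeq start, plus strand of GRCm38.p6, at chr5:90772185-90772434 for Pf4 and chr5:90768268-90768517 for Ppbp. Capitals mark a match to AGGAAG, a core of ETS factor sites, read on the opposite strand.
Pf4: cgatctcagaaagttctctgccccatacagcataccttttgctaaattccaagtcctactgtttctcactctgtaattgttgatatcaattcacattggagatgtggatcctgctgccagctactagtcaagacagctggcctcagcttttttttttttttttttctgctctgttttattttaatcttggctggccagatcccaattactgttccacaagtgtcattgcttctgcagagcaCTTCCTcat
Ppbp: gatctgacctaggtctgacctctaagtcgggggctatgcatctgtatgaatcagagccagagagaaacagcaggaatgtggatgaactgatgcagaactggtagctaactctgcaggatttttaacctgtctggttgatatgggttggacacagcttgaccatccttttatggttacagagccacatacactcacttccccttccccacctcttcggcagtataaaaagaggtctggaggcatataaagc

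Both strands were searched for AGGAAG and for AGATAA, a core of GATA factor sites; both factor families drive megakaryocyte genes. Pf4 held 1 AGGAAG match, from 9 to 4 bases before the start, and Ppbp held 0 of either. RefSeq promoters were at hand for 7 of the 8 measured genes. Itga2b had 2 AGGAAG matches, Gp9 had 1, Gp5 had 1 beside 2 of AGATAA, and Treml1 and Clec1b had 0. Of 32851 promoter windows of the same length 29.5% held AGGAAG, and 3281 of them held AGATAA. These matches are letters in a window and show no binding.

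Pf4 read 8.23 and 8.19 on the Gr1hi arrays with beads, 7.80 and 7.90 on those without, 8.68 and 8.60 on the Gr1lo arrays with beads, and 11.36 and 7.70 on arrays 1 and 2 of Gr1lo without beads. A single array was thus far above all others, by 3.67 over its own replicate, and array 2 of that group was the lowest of the 8. Ppbp read 7.93 and 7.76 in Gr1hi with beads, 7.95 and 7.58 in Gr1hi without, 7.31 and 7.94 in Gr1lo with beads, and 7.42 and 7.44 in Gr1lo without. On the array where Pf4 peaked, Ppbp differed from its replicate by 0.02, and the 4 groups of Ppbp overlapped except that both Gr1lo readings without beads lay under all 4 of Gr1hi. Without beads, both Gr1lo readings lay under both Gr1hi readings for 40.5% of all genes.

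**Figure D1:**
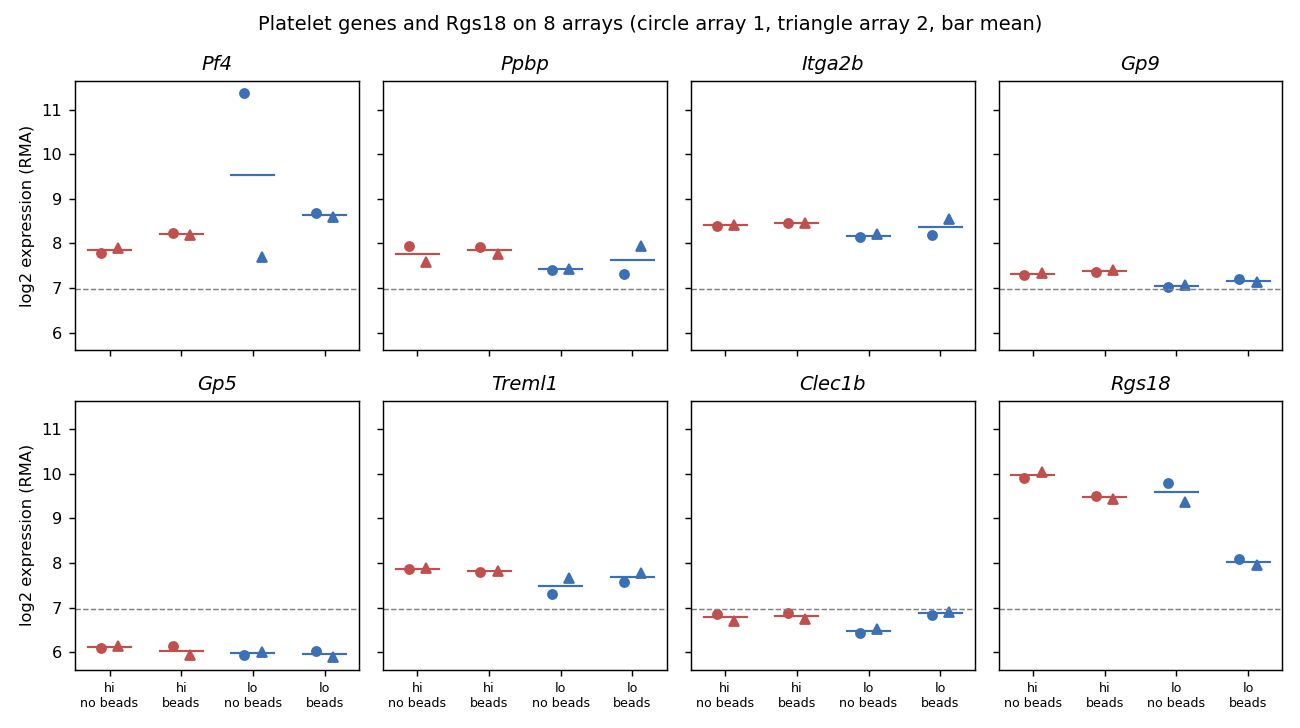
Log2 expression (RMA) of the 8 measured genes on each array; circles are array 1, triangles array 2, bars group means of 2 arrays, red Gr1hi, blue Gr1lo, and the dashed line the background level of 6.98. Pf4 is at 11.36 on a single Gr1lo array without beads, Rgs18 is lowest in Gr1lo with beads at 8.09 and 7.95, and the other genes stay within 0.65 of themselves.

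The adhesion receptors spanned little over the 8 arrays. Itga2b, the alpha IIb chain of the platelet fibrinogen receptor, read 8.47 and 8.47 in Gr1hi with beads, 8.40 and 8.42 without, 8.18 and 8.55 in Gr1lo with beads, and 8.14 and 8.20 without. Gp9, a chain of the von Willebrand factor receptor complex, read 7.35 and 7.41, then 7.29 and 7.33, 7.19 and 7.14, and 7.03 and 7.07 in the same order of groups. Both Gr1lo groups lay under both Gr1hi groups for Gp9, by small steps close to background. Over all genes, 40.5% without beads and 34.6% with beads lay lower in Gr1lo without overlap. Gp5, another chain of that complex, stayed between 5.88 and 6.14, below background on all 8 arrays.

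Treml1 and Clec1b encode a granule membrane receptor and the podoplanin receptor CLEC-2. Treml1 read 7.80 and 7.83 in Gr1hi with beads, 7.86 and 7.89 without, 7.57 and 7.77 in Gr1lo with beads, and 7.30 and 7.66 without. All Gr1lo readings lay under all Gr1hi readings. Of all genes 40.5% without beads and 34.6% with beads lay lower in Gr1lo without overlap. The share with all Gr1lo readings under all Gr1hi readings was not computed. Clec1b was below background on all 8 arrays, at 6.71 to 6.87 in Gr1hi, 6.84 and 6.91 in Gr1lo with beads, and 6.42 and 6.53 in Gr1lo without beads.

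The span from lowest to highest array gives a common measure of how much each gene varied. It was 0.26 for Gp5, 0.38 for Gp9, 0.41 for Itga2b, 0.49 for Clec1b, 0.59 for Treml1 and 0.65 for Ppbp. Over the 115 unexpressed-type genes the median span was 0.38 and the 95th percentile 0.652, and all 6 of these platelet genes lay under that percentile. Over genes above background the median span was 0.52 and the 95th percentile 1.78. Of the platelet genes with means above background, Itga2b and Gp9 spanned less than that median, and Treml1 and Ppbp more. Pf4 spanned 3.67 and Rgs18 2.08, beyond 99.6% and 97.8% of all genes. The median over all genes was 0.45.

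Rgs18 had the order Gr1hi without beads, Gr1lo without beads, Gr1hi with beads, Gr1lo with beads. It read 9.90 and 10.03 in Gr1hi without beads, 9.80 and 9.36 in Gr1lo without, 9.50 and 9.44 in Gr1hi with beads, and 8.09 and 7.95 in Gr1lo with beads. The arrays of Gr1lo without beads and of Gr1hi with beads overlapped, while the highest and the lowest group stood clear of the rest. A second Rgs18 probe set, lower in mean, gave the same picture: beads against no beads was -1.27 in Gr1lo and -0.47 in Gr1hi, against -1.56 and -0.49 for the main one. None of the 7 platelet genes had both Gr1lo arrays with beads under all the others. The share of all genes with that order was not computed, so this count only describes the members.

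Did the platelet genes rise and fall together between replicate arrays? In Gr1hi with beads 5 of 7 were higher on array 1 and 2 on array 2, and in Gr1hi without beads 2 and 5. Leaving Pf4 aside, those differences ran from -0.20 to 0.06 and from -0.37 to 0.04 (array 2 minus array 1). In Gr1lo with beads 4 were higher on array 2, led by Ppbp (0.64), Itga2b (0.37) and Treml1 (0.20), while Gp9 (-0.05), Gp5 (-0.14) and Pf4 (-0.08) went the other way. In the same pair of arrays 72.2% of the unexpressed-type genes were higher on array 2, with a median of 0.10.

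In Gr1lo without beads 6 of 7 platelet genes were higher on array 2, by 0.02 to 0.36, and only Pf4 was higher on array 1. Of the unexpressed-type genes 77.4% were higher on array 2, with a median of 0.14, and of all genes 54.7%. The array that peaked for Pf4 had the lowest mean of the other 6 platelet genes among the 8 arrays, 7.04, where the rest were between 7.15 and 7.43. That array also had the lowest median of the unexpressed-type genes, 5.09, where the rest were between 5.13 and 5.33. Summed on the linear scale those 6 genes came to 889 on one array and 960 on the other of this group, to 966 to 1161 in Gr1lo with beads, and to 1108 to 1171 on the Gr1hi arrays, so the sums of the subsets overlapped with beads. Rgs18 was lower on array 2 in this group (-0.44) and in Gr1lo with beads (-0.15), opposite in sign to most platelet genes in both. In Gr1hi it had the sign of most platelet genes, -0.07 with beads and 0.13 without.

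**Figure D2:**
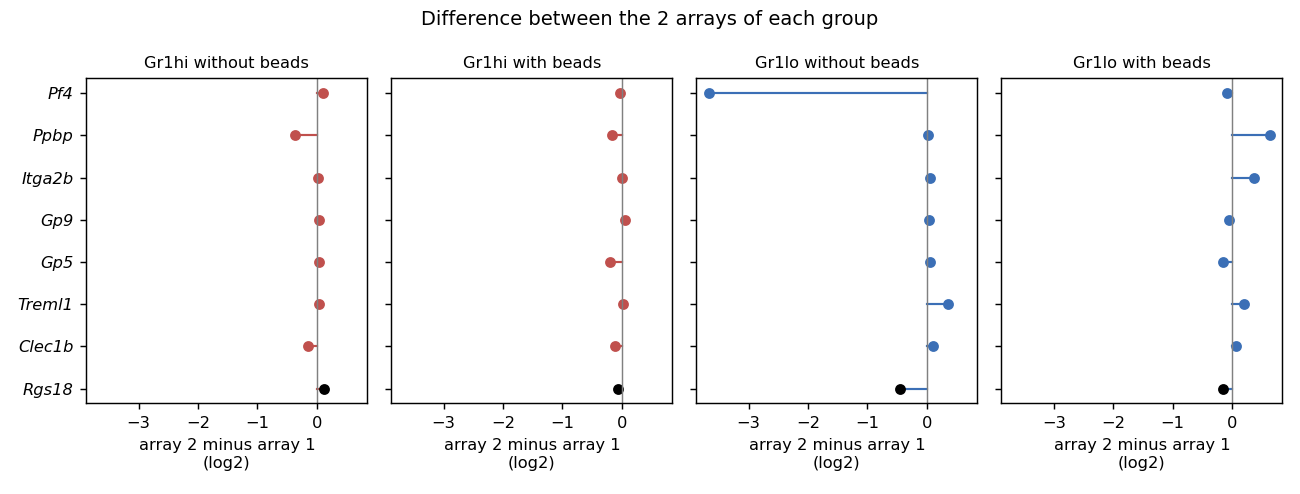
Array 2 minus array 1 (log2) for each gene in each of the 4 groups; Rgs18 is drawn in black. Pf4 differs by -3.67 in Gr1lo without beads while the other platelet genes there lie between 0.02 and 0.36; in Gr1lo with beads Ppbp and Itga2b are higher on array 2.

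Across the 8 arrays Pearson's r was computed as a description only, since the arrays share 4 groups and their scaling. Of 21 pairs of platelet genes 15 had r above 0, with a median of 0.50. Leaving out Pf4, all 15 pairs had r above 0, with a median of 0.65 and a highest value of 0.88 for Ppbp with Itga2b. Of 6555 pairs of unexpressed-type genes 4661 had r above 0, with a median of 0.24. Pf4 had r below 0 with each of the other 6, down to -0.87 with Treml1. All of these values include array 1 of Gr1lo without beads, where Pf4 read 11.36 against 7.70 to 8.68 on the other arrays. The mean of the other platelet genes was lowest on that array (7.04). Pearson's r without it was not computed, so the sign of these values is not shown for the remaining arrays. Rgs18 had r between -0.46 (Clec1b) and 0.54 (Gp5) with the platelet genes, with a median of 0.07.

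By the same measure the 5 non-member genes above background most like Rgs18 were Lactb2 (r 0.99), an RNA-cutting enzyme, the cap-binding protein Eif4e2 (0.99), Shisa5 (0.98), Apba1 (0.98) and Atf7ip (0.98). None is on the platelet lists. Lactb2 read 7.52 and 7.42 in Gr1lo with beads and 7.90 to 8.33 on the other arrays. The mean of the 7 platelet genes was most like the chemokine Ccl24 (0.94), Spr (0.93), Prpsap1 (0.87), Hps6 (0.86) and Sh3glb2 (0.83). That mean was highest on array 1 of Gr1lo without beads (7.66) through Pf4. The mean without Pf4, a search added after the values were seen, was lowest there (7.04) and had other leading genes: Slc7a4 (0.96), Lonp2 (0.95), Cysrt1 (0.94), Adh7 (0.94) and Ism1 (0.94). For Pf4 alone, a search added after its values were seen, the leading genes were the macrophage secreted protein Cd5l (0.98), Wdr74 (0.97), the leukotriene synthase Ltc4s (0.96), Tmem11 (0.94) and the kinase Dapk1 (0.94). Each of these genes also read highest on array 1 of Gr1lo without beads.

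Which genes shared the Pf4 peak? Ranked by array 1 minus array 2 in Gr1lo without beads, Pf4 was 12th of 18193 genes. The rank is a description of 1 pair of arrays. Ahead of it were the lubricating proteoglycan Prg4 (5.65), Ednrb (4.95), the lipoxygenase Alox15 (4.86), Cd5l (4.80), Retnla (4.54), Itga6 (4.06), Selp (4.02), Fcrls (3.98), Ecm1 (3.97), Saa3 (3.90) and Slpi (3.73). Selp encodes P-selectin of platelet granules; it read 10.74 on this array and 6.39 to 6.90 on the other 7, where it was below background.

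Of 38 other measured platelet and megakaryocyte genes, 4 were at least 2-fold higher on array 1 than on array 2 and 0 were lower. Of all 18193 genes 152 were higher and 1 lower by that measure, a smaller share. The 4 were Selp, the granule protein Thbs1 (thrombospondin), Mrvi1 and the thromboxane synthase Tbxas1. The median of the list was -0.03, beside -0.02 for all genes. Thbs1 read 9.90 on array 1 and 6.63 on array 2, and 8.09 to 9.74 on the Gr1hi arrays. Its reading on array 1 was the highest of the 8, above the next by less than its spread within the Gr1hi groups. Itgb3, Gp1bb and Gp6 did not share the peak, but only Itgb3 read above background there. Itgb3, the partner chain of Itga2b, read 8.07 on array 1 and 8.47 on array 2. Gp1bb, the partner chain of Gp9, read 6.74 and 6.87, and Gp6, the collagen receptor, 6.27 and 6.38. Gp1bb and Gp6 thus lay below the background level of 6.98 on both arrays.

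A list of 18 resident macrophage genes, drawn up after the array was seen, had 12 members at least 2-fold higher on array 1, with a median of 2.04. Because the list was chosen with this array in view, its count, median and sum are no test. They cannot be weighed against the other lists. Prg4 read 12.10 there and 6.45 on array 2, Cd5l 10.99 and 6.19, and Timd4, a receptor for dying cells, 7.13 and 5.04. C1qa, a complement chain of macrophages, read 11.37 and 8.16. The summed linear level of the list was 23923 and 5417 on the 2 arrays, 9603 to 11895 in Gr1lo with beads, 7548 to 7975 in Gr1hi with beads and 5351 to 5782 in Gr1hi without. Lists not drawn up from this array are set beside all genes only, of which 152 of 18193 were at least 2-fold higher on array 1 (median -0.02). Classical monocyte genes had 1 of 10 (Fn1, list median 0.44) and neutrophil genes 1 of 11 (S100a9, median 0.31). Marrow progenitor genes had 1 of 8 (Prtn3, median -0.02) and erythroid genes 0 of 10 (median -0.11). The part of macrophage transcripts in the Pf4 value was not tested.

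**Figure D3:**
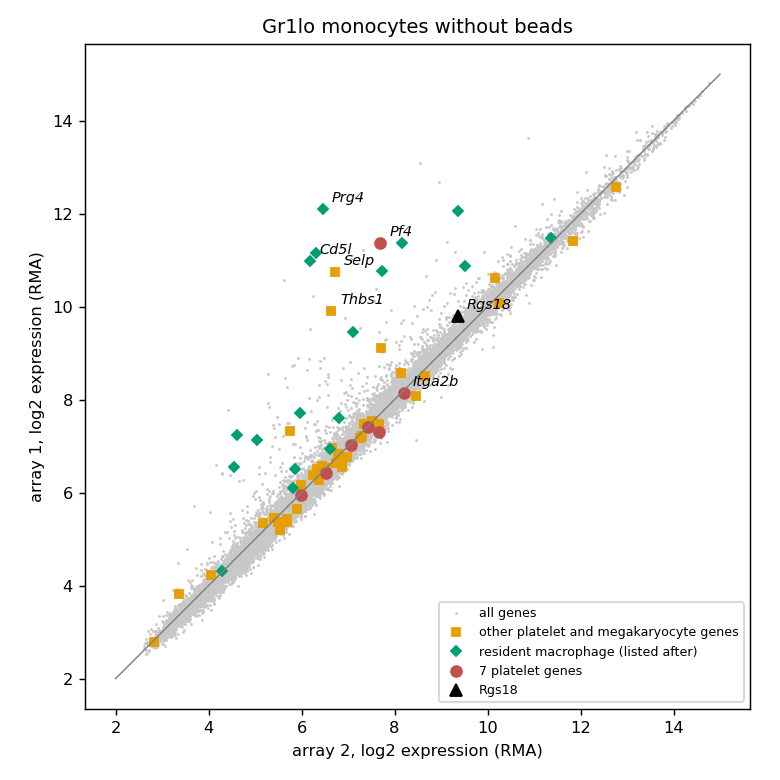
Log2 expression of all 18193 genes (grey) on array 1 against array 2 of Gr1lo monocytes without beads, with the line of equality; red circles are the 7 platelet genes, the black triangle Rgs18, squares the other platelet and megakaryocyte genes and diamonds the resident macrophage genes listed after the array was seen. Pf4, Selp and Thbs1 lie far above the line with Prg4 and Cd5l, while the other 6 platelet genes lie on it or below it.

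Do platelet genes differ with bead uptake in Gr1hi monocytes? Of 7 platelet genes 0 were called by limma and 0 had an unadjusted p under 0.05. Of all 18193 genes 0.247% were called and 1806 had an unadjusted p under 0.05. Platelet differences ran from -0.09 for Gp5 to 0.36 for Pf4, with a median of 0.06 beside -0.02 over all genes. For Itga2b the 95% interval of the difference was -0.21 to 0.33 and for Gp9 -0.11 to 0.25. Rgs18 differed by -0.49 ± 0.14 (SE, limma adjusted p = 0.294) and was not called. Both of its bead arrays lay under both bead-free arrays, as for 25% of all genes.

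In Gr1lo monocytes Rgs18 fell by 1.56 ± 0.14 (SE) with beads, 2.95-fold, from 9.58 ± 0.31 (SD, n = 2) to 8.02 ± 0.10 (limma adjusted p = 0.00455), where 0.225% of all genes were called, 0.0824% higher and 0.143% lower. None of the 7 platelet genes was called in limma, and 1, Clec1b, had an unadjusted p under 0.05 (0.40 ± 0.09, adjusted p = 0.167, below background). Such an unadjusted p was found for 2402 of all 18193 genes. The median platelet difference was 0.19, beside 0.02 over all genes and 0.09 over the unexpressed-type genes. Fitted on the 4 Gr1lo arrays alone the adjusted p of Rgs18 was 0.0639. The bead effects of Rgs18 in Gr1lo and Gr1hi differed by -1.07 ± 0.20 (limma adjusted p = 0.330), so a difference between subsets was not called. None of the 7 platelet genes was called for that difference, and 1 of them had an unadjusted p under 0.05. Of all 18193 genes 1427 had such an unadjusted p in limma and 0.0440% were called, 0.0110% higher and 0.0330% lower.

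Pf4 turned on the array that stood apart. With all arrays its bead difference in Gr1lo was -0.89 ± 0.89 (limma adjusted p = 0.700). Without array 1 of Gr1lo without beads it was 0.95 (adjusted p = 0.0195), and without array 2 it was -2.72 (adjusted p = 8.71e-06), each resting on a lone bead-free array assumed to vary like the other groups. Selp differed by -2.22 ± 0.98 (adjusted p = 0.384) with all arrays, by -0.21 without array 1 and by -4.22 without array 2 (adjusted p = 8.71e-06).

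Of the 38 other platelet and megakaryocyte genes, limma called 0 with beads in Gr1hi, where 9 had an unadjusted p under 0.05. In Gr1lo it called 1, F13a1, which encodes the A chain of coagulation factor XIII in platelets and classical monocytes alike. Of all genes 0.247% were called in Gr1hi and 0.225% in Gr1lo. In Gr1lo 9 of the 38 had an unadjusted p under 0.05 as well. Of all 18193 genes 1806 had such a limma p in Gr1hi and 2402 in Gr1lo. F13a1 read 7.46 and 7.24 in Gr1lo with beads and 10.61 and 10.17 without, and 13.15 to 13.58 on the Gr1hi arrays. It fell by 3.04 ± 0.15 in Gr1lo (limma adjusted p = 7.68e-05), in the same samples as Rgs18. Of 10 measured classical monocyte genes 6 were called lower with beads in Gr1lo, F13a1 among them, with a median of -1.74. Of all genes 0.143% were called lower there, with a median of 0.02. Their summed level was 17223 to 17925 with beads and 33089 to 43987 without. The dendritic lectin Cd209a also read low with beads (6.84 and 6.69 against 10.06 and 9.73). Of 9 measured dendritic cell genes 3 were called lower, Cd209a, Clec10a and Kmo, with a list median of -0.45. Zbtb46 (0.09), Siglech (0.14) and Xcr1 (0.07) went the other way and were not called. The part of classical monocyte and dendritic transcripts in the Rgs18 difference was not tested.

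Do platelet genes differ between the subsets without beads? Gp9 (-0.26 ± 0.08, limma adjusted p = 0.0442) and Clec1b (-0.31 ± 0.09, adjusted p = 0.0455) were called lower in Gr1lo, 2 of 7, where 13.6% of all genes were called lower and 23.6% called in all. For 6 of 7, all but Pf4, both Gr1lo arrays lay under both Gr1hi arrays, as for 40.5% of all genes. The platelet median was -0.26, beside -0.07 over all genes and -0.11 over unexpressed-type genes. Both calls were lost with each array centred on its median, where Gp9 differed by -0.17 (adjusted p = 0.205) and Clec1b by -0.21 (adjusted p = 0.155), and lost also without array 1 of Gr1lo without beads (-0.24, adjusted p = 0.154; -0.26, adjusted p = 0.189). Rgs18 differed by -0.38 ± 0.14 (adjusted p = 0.0867); without that array 1 it differed by -0.61 (adjusted p = 0.00831).

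With beads, Rgs18 was lower in Gr1lo than in Gr1hi by 1.45 on the log2 scale (-1.45 ± 0.14, limma adjusted p = 0.000146), where 26.5% of all genes were called and 14.6% called lower. None of the 7 platelet genes was called by limma, and Gp9 alone had an unadjusted p under 0.05 (-0.21 ± 0.08, adjusted p = 0.0833). Such an unadjusted p was found for 6613 of all 18193 genes. The platelet median was -0.10, beside -0.03 over all genes. The 95% interval was -0.37 to 0.17 for Itga2b and -0.67 to 0.23 for Ppbp. Each group enters more than 1 of these comparisons, so they are not independent of each other.

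**Figure D4:**
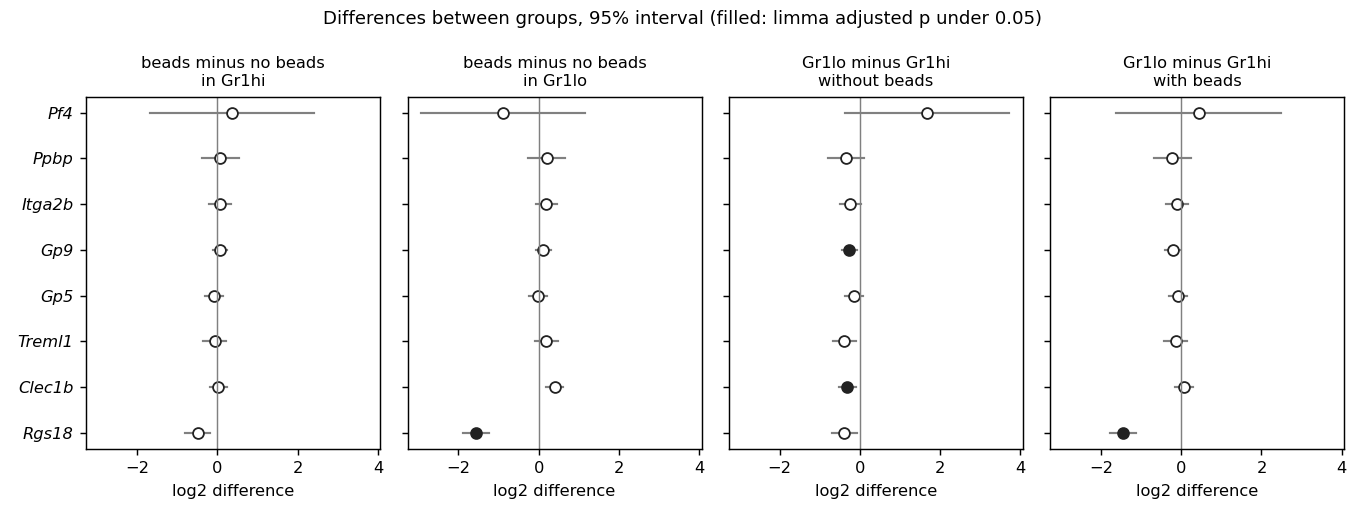
Log2 differences of the 8 genes with 95% intervals in 4 comparisons; filled points have a limma adjusted p under 0.05. Rgs18 is called in Gr1lo with beads against without (-1.56) and in Gr1lo against Gr1hi with beads (-1.45), Gp9 and Clec1b in Gr1lo against Gr1hi without beads, and the interval of Pf4 is the widest in each panel.

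Without beads 4 of the 38 other platelet and megakaryocyte genes were called higher in Gr1lo and 5 lower, with a median of -0.09. Of all 18193 genes 1820 were called higher and 2468 (13.6%) lower, so the counts were near the background. The higher ones were Vwf (2.81 ± 0.12), the von Willebrand factor of platelets and endothelium, the tetraspanin Cd9 (2.94 ± 0.13), the cytoskeletal linker Plek (0.73 ± 0.09) and Rasgrp2 (0.52 ± 0.11), an activator of Rap1. The lower ones were F13a1 (-3.15 ± 0.15), the ADP receptors P2ry12 (-1.89 ± 0.23) and P2ry1 (-0.84 ± 0.10), and, below background, Mmrn1 (-0.33 ± 0.09) and Cavin2 (-0.43 ± 0.12). Vwf read 7.47 and 7.66 in Gr1lo without beads and 4.64 and 4.87 in Gr1hi without. Cd9 is on the nonclassical and F13a1 on the classical monocyte list as well.

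With beads 4 of 38 were called higher in Gr1lo and 3 lower, with a median of -0.08, where 11.8% of all genes were called higher and 14.6% lower; these counts were at or below the background. Itgb3 rose by 1.13 ± 0.26 (limma adjusted p = 0.0113), reading 8.08 and 8.55 in Gr1lo against 7.26 and 7.12 in Gr1hi, while its partner Itga2b differed by -0.10 ± 0.12. The partner chain Gp1bb (-0.22 ± 0.09, limma adjusted p = 0.115) and the collagen receptor Gp6 (-0.28 ± 0.15, adjusted p = 0.219) were not called.

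Of 10 measured transcription factors of megakaryocytes, 0 were called with beads in either subset by limma. At an unadjusted p under 0.05 there were 1 in Gr1hi and 2 in Gr1lo, beside 1806 and 2402 of all 18193 genes. Without beads 3 were called higher in Gr1lo and 0 lower, beside 1820 and 2468 of all 18193 genes: Nfe2 (0.49 ± 0.12), which drives platelet shedding, Mef2c (0.56 ± 0.17) and Lyl1 (0.82 ± 0.11). With beads Nfe2 (1.05 ± 0.12) and Lyl1 (0.87 ± 0.11) were called higher, 2 of 10 beside 11.8% of all genes. Gata1, the master factor of megakaryocytes and erythroid cells, stayed at 5.03 to 5.49, below background on all 8 arrays, and the ETS factor Fli1 at 10.22 to 10.70.

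Of 18 other measured regulators of G protein signalling, 0 were called with beads in Gr1hi or Gr1lo by limma. At an unadjusted p under 0.05 there were 3 and 1, beside 1806 and 2402 of all 18193 genes. In Gr1lo, where Rgs18 fell, Rgs2 differed by -0.01 ± 0.11, Rgs3 by -0.01 ± 0.09, Rgs19 by -0.07 ± 0.08, Rgs10 by 0.00 ± 0.15 and Rgs1 by 1.46 ± 0.66. Between the subsets with beads, Rgs1 (4.00 ± 0.66), Rgs3 (1.10 ± 0.09), Rgs2 (0.93 ± 0.11) and Rgs19 (0.32 ± 0.08) were called higher in Gr1lo, and Rgs10, the other family member abundant in platelets, lower (-0.86 ± 0.15). These are 4 and 1 of 18, beside 11.8% of all genes called higher and 14.6% called lower. Of the 4 called higher, Rgs1 had the widest spread, reading 9.20 and 7.18 on the 2 Gr1hi arrays with beads.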

How the data were processed

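Expression was measured on Affymetrix mouse GeneChip arrays, 1 array for each of 8 sorted samples. The authors deposited 1 table of log2 values, normalised by RMA in the R package oligo and compared with limma, per the submitters' processing notes. Versions, chip definition and numbers of cells and mice are not given in these sources. Nothing in the labels says that replicates came from separate mice, beyond the design text calling them biological, so p-values measure the spread between these arrays.

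Of 45101 probe sets, 34945 carried 1 gene symbol in GEO's platform annotation; they represent 18193 genes, each by its probe set with the highest mean over 8 arrays. The background level, 6.98, is the 95th percentile of mean expression among 115 genes for smell, pheromone and taste receptors and hair keratin-associated proteins, called unexpressed-type genes in the report. All 8 arrays entered 1 model of 4 group means, fitted by lmFit and eBayes of limma 3.58.1 (R 4.3.3; 4 residual and 4.48 prior degrees of freedom), and p-values were adjusted by Benjamini-Hochberg over all genes. An adjusted p under 0.05 is a call, and tests are two-sided. SE is limma's moderated standard error and SD is between the 2 arrays of a group. In simulated data with 200 of 18193 genes changed by 1 log2 unit, 87.2% were recovered for beads in Gr1hi and 87.3% for beads in Gr1lo. The corresponding shares were 68.7% for the difference of bead effects, 83.0% for the subsets without beads and 88.2% with beads; at 0.5 log2 units they were 0% to 6.0%.

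All measured members were named in every comparison. Of other lists, called genes, receptor partners of members, the collagen receptor Gp6 and the genes most alike were named. Others are said to be chosen later. The members and lists were chosen with earlier results of these data known. Alternatives were other probe set rules, filters, scalings, eBayes settings, array weights, replicate blocks and leaving out each array. Tables were made with pandas 2.3.3 (Python 3.11.15) and drawn with matplotlib 3.10.9.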

Additional observations from a re-analysis of the deposited data

Results flagged for a closer look

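The bead effect on F13a1 differed between the subsets by -2.71 on the log2 scale (limma adjusted p = 0.00443), a tested difference: the coagulation factor gene fell by 3.04 in Gr1lo, in 2 of 2 bead arrays, and differed by -0.34 in Gr1hi. For Mmrn1, multimerin of platelet granules, both bead arrays lay under both bead-free arrays in Gr1hi and above them in Gr1lo, a difference of 0.28 between the effects that limma did not call (adjusted p = 0.649). The gene was below background on all arrays, and neither effect was called. Of all genes 25% lay lower with beads without overlap in Gr1hi, and 23.3% lay higher in Gr1lo. The share of genes with both was not computed.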

How the results depend on the processing

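Of the platelet genes and Rgs18, Pf4 alone changed direction past the threshold: its bead difference in Gr1lo was -0.89 with all arrays, 0.95 without array 1 of Gr1lo without beads and -2.72 without array 2. The bead call of Rgs18 in Gr1lo held in 16 of 17 alternatives (-1.78 to -1.34) and was lost in a fit of the compared arrays alone. Its call between subsets with beads held in 17 of 17. Gp9 and Clec1b in the subsets without beads kept their calls in 4 of 17 and 2 of 16 settings.

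Counts of genes called with beads moved most. In Gr1hi the 45 became 121 with trend and robust eBayes and 104 with array weights; in Gr1lo the 41 became 127 with trend and robust eBayes and 12 with the compared arrays alone. For the difference of bead effects the 8 became 17 with trend and robust eBayes and 5 with all probe sets averaged or with genes above background. Leaving out 1 array gave 0 to 58 genes in Gr1hi (platelet median -0.05 to 0.06), 17 to 354 in Gr1lo (0.05 to 0.29), 1 to 167 for the difference (0.0725 to 0.32), 2631 to 4125 for the subsets without beads (-0.28 to -0.22) and 3267 to 4964 with beads (-0.19 to 0.08). The highest counts in Gr1lo and for the difference came without array 2 of Gr1lo without beads, and 0 came without either Gr1hi array with beads or without array 1 of Gr1hi without beads, where limma gave 1293, 1335 and 1218 genes at an unadjusted p under 0.05. The cause was not tested.

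Replicate numbers are shared across groups. Deviations of same-numbered arrays correlated at 0.360 within Gr1hi and 0.273 within Gr1lo, and at -0.020 to 0.085 between subsets. With the replicate number as a block 56, 54, 10, 4663 and 5177 genes were called in the comparisons in the same order, and Clec1b lost its call (adjusted p = 0.0504). A replicate block within each subset, chosen after seeing the data, gave 102 in Gr1hi and 106 in Gr1lo.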
